A study of Mus musculus with 6 samples.

Results

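Molecular chaperones bind unfolded or partly folded proteins and help them reach or keep their native shape. The Hsp70 proteins do this in cycles of ATP use that are started by J-domain (DnaJ) partners and reset by nucleotide exchange factors such as the Hsp110 proteins, while the ring-shaped CCT complex (also called TRiC) encloses actin, tubulin and other substrates. Heat shock factor 1 raises many of these genes under proteotoxic stress by binding heat shock elements, which are repeated GAA units in alternating orientation. In red cell precursors chaperones are known for handling very large amounts of newly made globin, and inducible Hsp70 is known, from human erythroblasts, to protect GATA1 from caspase cleavage.

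The chaperones described here were chosen by gene symbol alone, as every probe whose symbol begins with Hspa, Hspb, Hspd, Hspe, Hsph, Hsp90a, Dnaja, Dnajb, Dnajc or Cct and a digit, or is Tcp1, with Hspa5 left out. That gave 133 of the 46632 probes on the array and 75 of 17711 named genes. RNA came from fetal liver erythroid progenitors of C57Bl/6 mouse embryos of age E12.5, expanded for 3 days in culture and taken as the fraction lacking Ter119, a marker of maturing red cells. SclRER/RER progenitors carry a form of SCL (Tal1) that is mutated in its DNA binding, WT progenitors carry normal SCL, and each genotype had 3 single-colour Illumina bead arrays. The labels name no batch. They also leave unsaid whether replicates were independent embryos or cultures, and p-values here cover no more than the spread among these arrays. The comparison asks whether chaperone mRNA levels depend on DNA binding by SCL.

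The symbols cover more than the cytosol. Of the 75 genes, 7 were assigned to the mitochondrion from textbook knowledge, such as Hspd1 and Hspa9, and 7 to the endoplasmic reticulum, such as Dnajc1 and Dnajb9. The rule also took in Hspbp1 and Hspbap1, which are partners of heat shock proteins and not small heat shock proteins themselves. The set is therefore called chaperones below, without a compartment.

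Mean signal was 385 to 546 intensity units per array, and 11084 to 12678 probes per array were detected at a detection p below 0.01. Both upper values are those of SclRER/RER array 1. The other arrays reached at most 457 units and 11495 probes. Levels are given as log2 intensity after background correction and quantile normalization, and a difference is SclRER/RER minus WT on that scale. A level can be compared between arrays for 1 probe, but not between probes. Of the erythroid markers fixed for this purpose, all 14 named on the array were above background, among them Gata1, Klf1 and Alas2, and 2 of them, Epor and Slc4a1, fell. Of the markers of other cells, 1 of 10 was above background for hepatocytes, 1 of 8 for macrophages, 1 of 5 for lymphoid cells and 1 of 7 for endothelial and stromal cells, against 4 of 7 for megakaryocytes and 6 of 9 for mast cells and neutrophils. All 4 megakaryocyte markers above background fell in SclRER/RER. Summed over all probes of the megakaryocyte list, those at background included, intensities were 737 to 981 in SclRER/RER against 1744 to 2137 in WT. Of the 6 mast cell and neutrophil markers, Cpa3 rose (1.07, adjusted p = 0.0127) and Mpo, Prtn3 and Ctsg fell (-0.63, -0.68 and -1.62), while S100a8 and S100a9 did not pass. Cpa3 was detected on 3 SclRER/RER arrays and 1 WT array, and Ctsg on 1 SclRER/RER array and 3 WT arrays. Each thus counted as above background only through the genotype where it is higher, and its level in the other is mostly not above background. Summed in the same way, intensities of the mast cell and neutrophil list were 4658 to 9313 in SclRER/RER and 7612 to 8444 in WT. The part of these cells in the chaperone levels was not tested, and in bulk RNA fewer cells of a type and less RNA per cell cannot be told apart.

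Few chaperone genes differed between the genotypes. Of the 75 genes, 41 were measured above background on at least 3 arrays, and 1 of these, Dnajc1, passed the test, lower in SclRER/RER, with 0 higher (limma, Benjamini-Hochberg adjusted p below 0.05 over all 11578 probes above background). Dnajc1 met the detection limit on 3 arrays only through WT, and its call was lost with values set to the detection floor and on leaving out any of 4 of the 6 arrays, as given below. Over all 6855 genes tested the share called was 6.58%, with 3.57% higher and 3.01% lower, against 2.44% of the chaperones. With a single call among 41 genes, the chaperones' share is not a result that sets them apart. At an unadjusted p below 0.05 there were 5 chaperones (12.2%), against 19.0% of all genes. Of these 5, 3 were higher (7.32%, against 10.6% of all genes) and 2 lower (4.88%, against 8.37%). The values of SclRER/RER and WT arrays did not overlap for 9 chaperones (22.0%), against 25.4% of all genes, with 5 higher (12.2%, against 13.9%) and 4 lower (9.76%, against 11.4%). The median chaperone difference was -0.02, with 19 genes above 0 and 22 below, and the median over all genes tested was 0.02.

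No chaperone differed by 2-fold, and 1 of the 41 differed by 1.5-fold or more, while 3.06% and 8.23% of all genes did. The median absolute difference was 0.11 for chaperones and 0.15 for all genes tested, and 90% of the chaperones lay within 0.37, where 90% of all genes lay within 0.51. For 29 of the 41 chaperones (70.7%) the 95% confidence interval of the difference lay wholly inside a 1.5-fold change in either direction, as it did for 69.0% of all genes. For the other 12 the interval reached past that size, so a change of 1.5-fold was not shown to be absent. The intervals are not adjusted for the number of genes.

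**Figure D1:**
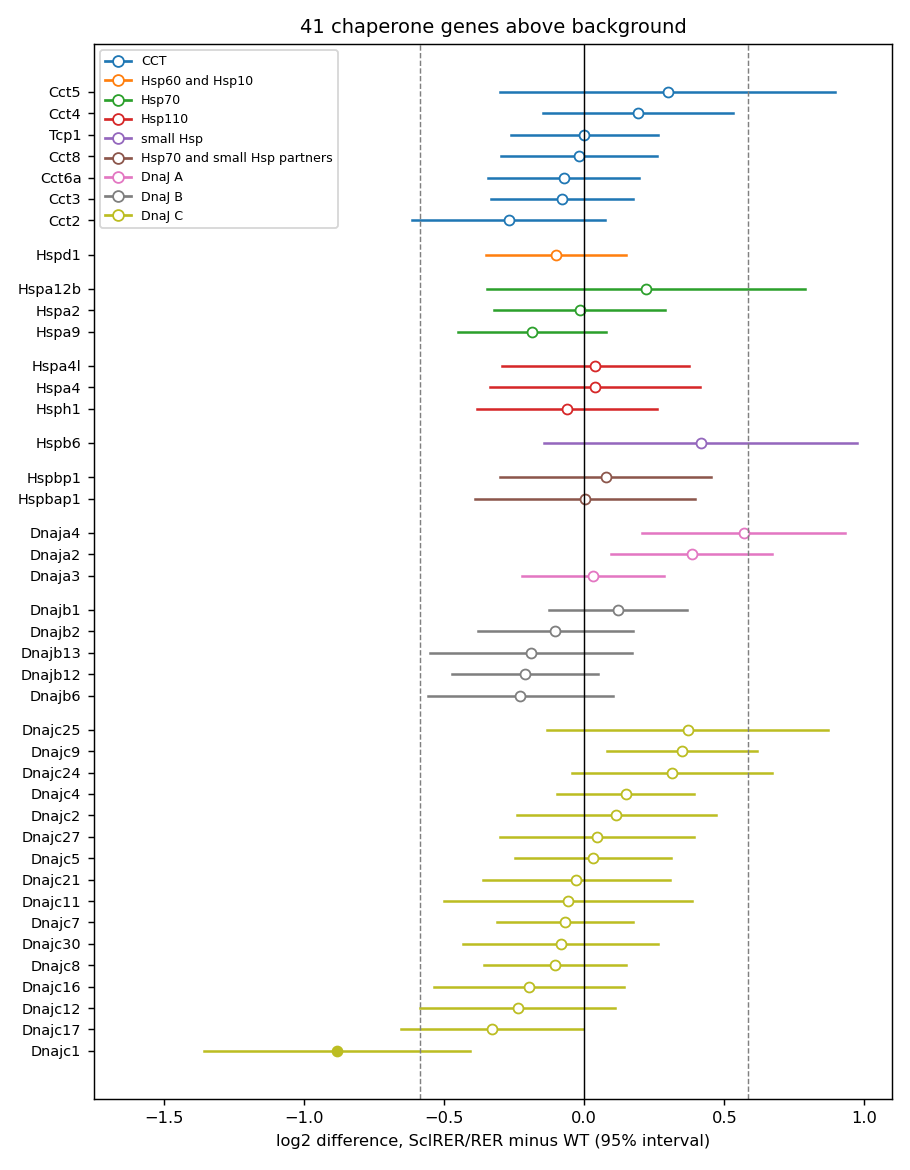
Log2 difference in mRNA level, SclRER/RER minus WT, for the 41 chaperone genes above background, grouped by family (n = 3 arrays each). Points are differences, lines are 95% confidence intervals, the filled point is Dnajc1, the gene past the test, and dashed lines mark a 1.5-fold change; 29 of the intervals stay between the dashed lines.

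**Figure D2:**
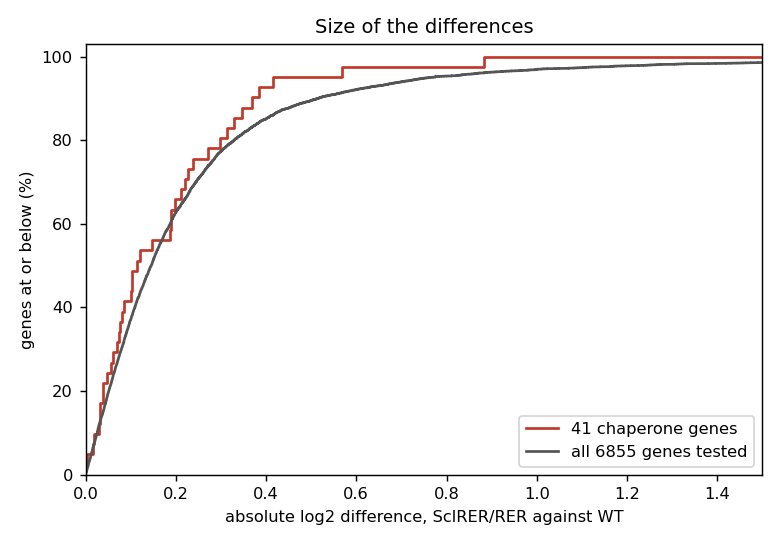
Percentage of genes (vertical axis) whose absolute log2 difference between SclRER/RER and WT is at or below the value on the horizontal axis, for the 41 chaperone genes and for all 6855 genes tested. The chaperone curve ends at 0.88, the value of Dnajc1, and the curve of all genes goes on beyond the axis.

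The CCT complex is built from 8 different subunits, which act together in every ring. Of the 10 genes with CCT symbols, 7 were above background, all of them on all 6 arrays, and 0 passed the test. Tcp1, the first subunit to be described, was at 13.41, 13.44 and 13.54 on SclRER/RER arrays 1 to 3 and at 13.57, 13.48 and 13.33 on WT arrays 1 to 3. Its groups overlapped fully, and the difference was -0.00017 (95% interval -0.26 to 0.26). Cct3 was at 12.23, 12.35 and 12.44 in SclRER/RER and at 12.46, 12.37 and 12.43 in WT, a difference of -0.08 (interval -0.33 to 0.17). Cct6a and Cct8 were as close, with differences of -0.07 (interval -0.34 to 0.20) and -0.02 (interval -0.30 to 0.26). Cct4 was at 14.06, 13.74 and 13.66 in SclRER/RER and at 13.77, 13.68 and 13.44 in WT, with a difference of 0.19 (interval -0.15 to 0.53) that was 0.069 with SclRER/RER array 1 left out and 0.095 with WT array 3 left out.

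The intervals of the remaining 2 subunits above background reached past a 1.5-fold change. Cct2 was at 8.79, 8.58 and 8.42 in SclRER/RER and at 8.64, 9.07 and 8.89 in WT, a difference of -0.27 (SE 0.15, adjusted p = 0.386) that was -0.17 without WT array 2. Cct5 was at 8.55, 7.65 and 7.38 in SclRER/RER and at 7.57, 7.50 and 7.60 in WT. Its difference of 0.30 (SE 0.26, adjusted p = 0.617) rests on SclRER/RER array 1, the one array that stands high, and was -0.05 without it. Cct7, with 1 probe, passed the detection limit on 1 of 6 arrays, and Cct6b, a testis form, and Cct8l1 on none. A signal below the limit does not show that an mRNA was absent. The median over the 7 CCT genes was -0.02, with 2 above 0 and 5 below.

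Partners and substrates of the ring did not pass either. From a list of prefoldin subunits, CCT cofactors and the substrates actin and tubulin, 13 genes were named on the array and 5 were at background. The 8 tested were prefoldin subunits, actin and tubulins, with no CCT cofactor among them. Of these 8, 0 passed, and all 8 intervals lay inside a 1.5-fold change. Prefoldin hands unfolded actin and tubulin to CCT, and its subunits Pfdn2, Vbp1, Pfdn4, Pfdn5 and Pfdn6 were among the 8. Actb, encoding beta-actin, was at 14.93, 14.74 and 14.95 in SclRER/RER and at 14.91, 14.96 and 14.87 in WT. Tubb5, a beta-tubulin, was at 13.90, 14.11 and 14.27 in SclRER/RER and at 14.14, 14.09 and 14.19 in WT. The groups overlapped for both, and the top of the scale, 15.26, leaves Actb little room upwards.

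The mitochondrial chaperones did not pass the test. Hspd1 encodes Hsp60, the barrel that folds proteins imported into the matrix. It was at 13.15, 13.12 and 13.24 in SclRER/RER and at 13.24, 13.37 and 13.21 in WT, a difference of -0.10 (SE 0.11, 95% interval -0.35 to 0.15, adjusted p = 0.705). Its other probe above background differed by -0.21 (interval -0.48 to 0.06), with all SclRER/RER arrays below all WT arrays. Hspa9 encodes mortalin, the matrix Hsp70, which pulls in imported proteins and takes part in iron-sulphur cluster assembly. Its level was 12.15, 12.30 and 12.30 in SclRER/RER and 12.35, 12.56 and 12.41 in WT. All 3 SclRER/RER arrays were below all 3 WT arrays, but the difference of -0.19 (SE 0.12, interval -0.45 to 0.08) did not pass the test (adjusted p = 0.443). Of the 5 mitochondrial genes above background, which also included Dnaja3 (Tid1), Dnajc11 and Dnajc30, 0 passed. By the brightest probe of each, all 5 intervals lay inside a 1.5-fold change. The other Dnajc11 probe above background differed by 0.33, with an interval (-0.17 to 0.84) that reached past that size.

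The stress-inducible chaperones are those on which heat shock factor 1 acts most strongly, and several of them carry its sites close to the gene start. Upstream sequences of 2 such members that were above background are shown with that site, and that of Dnaja4, whose difference above 0 was the largest, with the shorter site. They are from RefSeq (build GRCm38.p6), read 5′ to 3′ on the strand of the gene. In Dnaja4 capitals mark 2 alternating units, GAANNTTC or TTCNNGAA on either strand. In the others they mark 3 units, GAANNTTC followed by NNGAA or TTCNNGAA followed by NNTTC, and each such match contains matches of 2 units.
Hspd1, chr1:55088012-55088131, minus strand: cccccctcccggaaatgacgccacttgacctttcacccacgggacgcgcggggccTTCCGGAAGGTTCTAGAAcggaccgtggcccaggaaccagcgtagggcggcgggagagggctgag
Dnajb6, chr5:29735778-29735897, plus strand: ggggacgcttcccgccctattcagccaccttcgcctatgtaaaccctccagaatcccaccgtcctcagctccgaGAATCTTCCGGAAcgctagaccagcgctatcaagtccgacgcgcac
Dnaja4, chr9:54699439-54699558, plus strand: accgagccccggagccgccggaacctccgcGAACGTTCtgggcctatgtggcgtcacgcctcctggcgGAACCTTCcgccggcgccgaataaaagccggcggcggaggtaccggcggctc
In Hspd1 there are 2 overlapping matches of 3 units, and the capitals run through both. Windows from 250 bases before to 50 bases after the gene start were listed for 62 of the 75 chaperones, 81 windows in all. The motif of 3 units was in 5 of them (6.17%), belonging to Hspd1, Hsph1 and Dnajb6, and in 0.603% of all 32851 windows. The motif of 2 units was in 24.7% of chaperone windows and 15.1% of all windows. Among genes tested, 11.1% of chaperone windows and 0.577% of all windows held 3 units, and 24.4% of chaperone windows and 11.5% of all windows held 2. A match is a description of the letters and not a shown binding site.

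The 3 genes with the motif of 3 units did not pass the test. Besides Hspd1, Hsph1 was at 11.60, 11.70 and 12.05 in SclRER/RER and at 11.82, 11.94 and 11.77 in WT. Hsph1 encodes Hsp105, an Hsp110 protein and exchange factor of Hsp70, and the groups overlapped, with a difference of -0.06 (SE 0.14, interval -0.38 to 0.26, adjusted p = 0.880). Dnajb6, a J-protein that holds back aggregation, was at 7.07, 7.27 and 7.33 in SclRER/RER and at 7.20, 7.52 and 7.63 in WT, a difference of -0.23 (SE 0.14, adjusted p = 0.457). Among the 9 chaperones above background with the motif of 2 units, 0 passed and the median difference was -0.06.

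Dnajb1 encodes Hsp40, the main J-domain partner of cytosolic Hsp70 and a strong heat shock gene. It was at 12.37, 12.28 and 12.20 in SclRER/RER and at 12.20, 12.17 and 12.12 in WT. The SclRER/RER arrays were all above the WT arrays, the lowest of them only just, and the difference was 0.12 (SE 0.11, interval -0.13 to 0.37, adjusted p = 0.625). The probes of other stress-inducible chaperones, Hspa1a (inducible Hsp70), Hsp90aa1 (inducible Hsp90), Hspb1 (Hsp25) and Dnaja1, were detected on 0 of 6 arrays, and nothing is given about their change. Hspa8, Hspa1b, Hsp90ab1 and Hspe1 have no probe named for them here and were not analysed.

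Heat shock regulators and cochaperones outside the set of symbols did not pass the test. Of 28 tested, 0 rose and 0 fell, the median difference was -0.0017, and 26 of the 28 intervals lay inside a 1.5-fold change. Stip1, which links Hsp70 to Hsp90, was at 12.12, 12.15 and 12.42 in SclRER/RER and at 12.38, 12.52 and 12.28 in WT, a difference of -0.16 (adjusted p = 0.580). Ahsa1, the activator of the Hsp90 ATPase, was at 11.78, 11.79 and 12.33 in SclRER/RER and at 12.03, 12.01 and 12.03 in WT, a difference of -0.05 (adjusted p = 0.910). Bag3, an exchange factor of Hsp70 induced by heat shock factor 1, was at 10.25, 10.41 and 10.61 in SclRER/RER and at 10.33, 9.94 and 10.20 in WT, a difference of 0.26 (adjusted p = 0.380). Hsf2, a relative of heat shock factor 1, was detected on 2 SclRER/RER arrays and 1 WT array and differed by -0.06 (adjusted p = 0.865). Hsf1 and Grpel1 were not analysed here, since no probe was named for them.

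The heat shock genes can be set beside the immediate early genes, which rise within minutes of a stimulus or of cell handling. Of 11 immediate early genes tested, 2 rose and 0 fell, where 3.57% of all genes tested rose and 3.01% fell. Jun, a subunit of AP-1, was at 7.02, 7.13 and 7.36 in SclRER/RER and at 6.49, 6.37 and 6.55 in WT, and rose by 0.70 (SE 0.13, adjusted p = 0.0145). Dusp1, a phosphatase of MAP kinases, rose by 0.71 (SE 0.12, adjusted p = 0.0115). Of the 9 that did not pass, Ier3, Zfp36 and Myc lay below 0 (-0.51, -0.54 and -0.16) and the others above. Fosb, at 0.85 the largest of those above, was detected on 3 SclRER/RER arrays and 1 WT array. It thus passed the filter only through SclRER/RER, where it is higher. The median difference of the 11 was 0.28. The summed intensity of the list, in which bright genes weigh most, was 8470 to 11746 in SclRER/RER and 7205 to 7497 in WT. That sum is over all probes of the list, those at background included. The part of this difference in the chaperone values was not tested.

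Among the other Hsp70 and Hsp110 genes above background, 0 passed. Hspa4 (Apg-2), an Hsp110 protein, was at 7.19, 6.65 and 7.21 in SclRER/RER and at 7.09, 6.91 and 6.94 in WT, a difference of 0.04 (interval -0.34 to 0.41). Hspa4l and Hspa2, an Hsp70 best known from the testis, differed by 0.04 and -0.02. Hspa12b, a distant Hsp70 relative of endothelial cells, differed by 0.22 (SE 0.25, adjusted p = 0.718), with 7.37 on SclRER/RER array 1 against 6.45 and 6.59 on the other two. The exchange factor Hspbp1 and Hspbap1 differed by 0.08 and 0.0032.

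Of 8 small heat shock protein genes, Hspb6 (Hsp20) was the one above background. It was at 7.77, 7.59 and 6.79 in SclRER/RER and at 6.96, 6.75 and 7.20 in WT. SclRER/RER arrays 1 and 2 lay above all WT arrays and array 3 within them, and the difference of 0.42 (SE 0.25, interval -0.14 to 0.97) did not pass (adjusted p = 0.418). The difference depended on single arrays. It was 0.22 (adjusted p = 0.722) without SclRER/RER array 1 and 0.71 (adjusted p = 0.0324) without SclRER/RER array 3.

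The J-domain proteins are the largest family of the set. Of 42 genes, 24 were above background, with 0 higher, 1 lower and 23 that did not pass. Class A members resemble bacterial DnaJ over their whole length and class B members share its glycine-rich stretch, while class C members share the J domain alone and have varied, often specialised tasks.

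The call was in Dnajc1, a class C protein (ERj1, also MTJ1) that spans the membrane of the endoplasmic reticulum and brings the lumenal Hsp70 to newly made chains at the ribosome. It was at 6.15, 5.99 and 6.34 in SclRER/RER and at 6.56, 7.19 and 7.37 in WT. All SclRER/RER arrays were below all WT arrays, with WT array 1 closest to them. Means were 6.16 ± 0.18 in SclRER/RER and 7.04 ± 0.43 in WT (SD, n = 3 each), and the level fell by 0.88 on the log2 scale (SE 0.21, 95% interval -1.36 to -0.41, adjusted p = 0.0418). These levels are close to background. The probe was detected on 1 SclRER/RER array and 3 WT arrays, so it passed the filter only through WT, where it is higher, and the SclRER/RER mean is mostly of values not above background. The 1 array was SclRER/RER array 1, which had the lowest detection floor (5.97). SclRER/RER array 3, at the higher level of 6.34, was below its own floor of 6.36. When detection on all 6 arrays was required Dnajc1 was not tested, and the difference was -0.73 once lower values were set to the detection floor (adjusted p = 0.0677). A further Dnajc1 probe, detected on 1 array of each genotype, was at 6.26, 6.31 and 6.26 in SclRER/RER and at 6.29, 5.96 and 6.39 in WT, with no such gap, and the third was detected on none. The call was lost without SclRER/RER array 1 (adjusted p = 0.0759) or 2 (0.125) and without WT array 2 (0.178) or 3 (0.148).

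The region before the Dnajc1 start is shown because this was the one call, with the letters CAGNTG or CANCTG, an E-box of the kind that SCL and its E protein partners can bind, in capitals (RefSeq, GRCm38.p6, 5′ to 3′ on the strand of the gene).
Dnajc1, chr2:18392831-18392950, minus strand: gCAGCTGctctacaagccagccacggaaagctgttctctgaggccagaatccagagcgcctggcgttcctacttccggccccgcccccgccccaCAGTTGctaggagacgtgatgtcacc
Such an E-box was in 42.0% of the 81 chaperone windows and in 51.4% of all windows, so its presence does not set Dnajc1 apart. GATAA or TTATC, the core of GATA factor sites, was in 13.6% of chaperone windows and 25.4% of all windows. Among genes tested it was in 15.6% of chaperone windows and 16.7% of all windows, and the E-box in 44.4% of chaperone windows and 42.3% of all windows.

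The 3 class A genes tested, of 4 on the array, did not pass the test. Dnaja4, a cytosolic partner of Hsp70, was at 9.87, 10.16 and 9.59 in SclRER/RER and at 9.27, 9.45 and 9.20 in WT. Every SclRER/RER array was above every WT array. Means were 9.87 ± 0.28 in SclRER/RER and 9.30 ± 0.13 in WT (SD, n = 3 each), a difference of 0.57 (1.48-fold, SE 0.16, interval 0.21 to 0.93, adjusted p = 0.0755). Dnaja2, another cytosolic class A protein, was at 7.71, 7.44 and 7.57 in SclRER/RER and at 7.29, 7.24 and 7.04 in WT. Its arrays did not overlap either, and the difference was 0.38 (1.30-fold, SE 0.13, interval 0.10 to 0.67, adjusted p = 0.127). The mitochondrial Dnaja3 differed by 0.03 (interval -0.22 to 0.28), with overlapping arrays, and its other probe above background by -0.12.

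Dnaja4 passed under 6 of the 19 alternative settings, the authors' deposited normalized values among them (difference 0.53, adjusted p = 0.0453). Dnajc1 passed under 10 of the 18 settings in which it was tested. Both genes thus lie at the edge of the threshold.

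**Figure D3:**
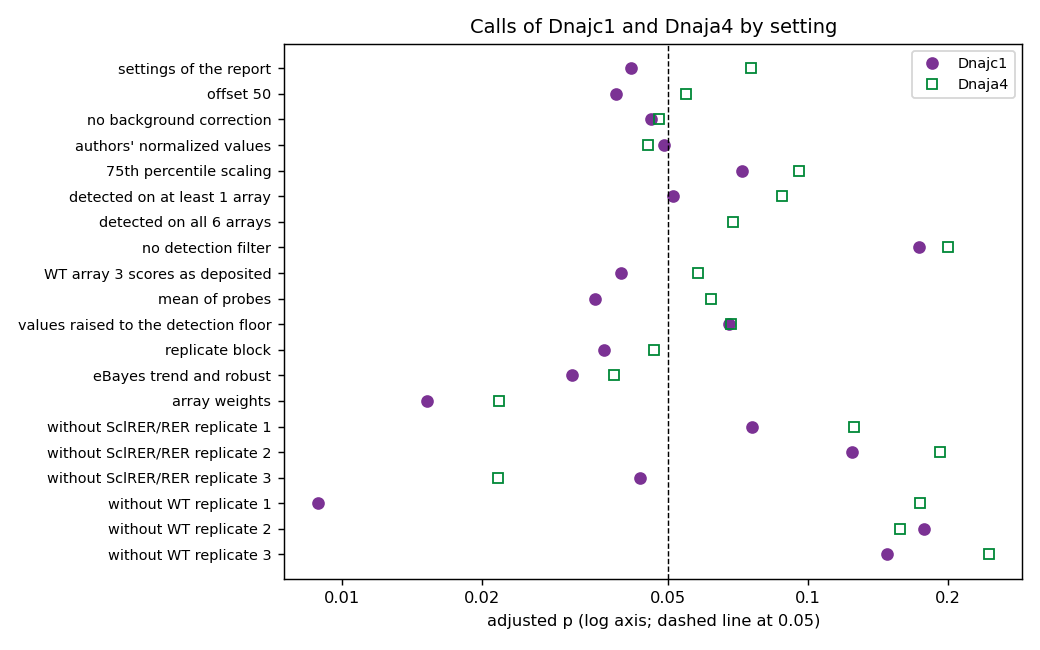
Adjusted p (horizontal, log axis) of Dnajc1 (filled circles) and Dnaja4 (open squares) in the SclRER/RER against WT comparison under the settings of the report and each alternative (vertical axis). Points left of the dashed line at 0.05 pass; Dnajc1 passes at 0.0418 and Dnaja4 misses at 0.0755 under the settings of the report, and Dnajc1 has no point where detection on all 6 arrays was required.

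Of 5 class B genes above background, 0 passed, and all 5 intervals lay inside a 1.5-fold change. Dnajb1 differed by 0.12 and Dnajb6 by -0.23, as given above. Dnajb12, an anchored J-protein of the endoplasmic reticulum that serves degradation, was at 8.55, 8.61 and 8.39 in SclRER/RER and at 8.80, 8.68 and 8.69 in WT, without overlap, a difference of -0.21 (SE 0.11, adjusted p = 0.368). Its other probe above background differed by 0.02. Dnajb2 and Dnajb13, a protein of ciliary axonemes, differed by -0.10 and -0.19.

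The 15 class C genes besides Dnajc1 that were above background lay between -0.33 and 0.37. Dnajc9, a histone chaperone of the nucleus, was at 6.83, 6.87 and 6.60 in SclRER/RER and at 6.45, 6.40 and 6.40 in WT, without overlap, a difference of 0.35 (SE 0.12, interval 0.08 to 0.61, adjusted p = 0.134). It was detected on 3 SclRER/RER arrays and 1 WT array, so it passed the filter only through SclRER/RER, where it is higher, and the WT level is mostly not above background. Dnajc17, a nuclear J-protein linked to splicing, was at 7.57, 8.01 and 7.98 in SclRER/RER and at 8.14, 8.23 and 8.18 in WT, without overlap, a difference of -0.33 (SE 0.14, adjusted p = 0.248). Its lowest value is that of SclRER/RER array 1, and the difference was -0.19 without that array.

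Dnajc24 (Dph4), which acts in diphthamide synthesis, was at 8.81, 8.41 and 8.66 in SclRER/RER and at 8.52, 8.35 and 8.07 in WT, a difference of 0.31 (SE 0.16, adjusted p = 0.323) that was 0.19 without WT array 3. Dnajc25 was at 6.80, 6.27 and 7.19 in SclRER/RER and at 6.36, 6.58 and 6.22 in WT, a difference of 0.37 (SE 0.22, adjusted p = 0.424), and it was detected on 2 arrays of each genotype. That difference was 0.15 without SclRER/RER array 3 and 0.61 without SclRER/RER array 2. In both genes the groups overlapped.

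For several class C genes with general tasks, the interval of the brightest probe lay inside a 1.5-fold change. Dnajc7 (Tpr2), which shuttles clients between Hsp70 and Hsp90, was at 12.64, 12.76 and 12.65 in SclRER/RER and at 12.72, 12.72 and 12.81 in WT, a difference of -0.07 (interval -0.31 to 0.17). Dnajc8, a nuclear protein of the splicing machinery, differed by -0.10 (interval -0.36 to 0.15). Dnajc5, the cysteine string protein of secretory vesicles, differed by 0.03 (interval -0.25 to 0.31), and its 2 dimmer probes by 0.07 and -0.01. Dnajc2 (Mpp11), which places Hsp70 at the ribosome exit, differed by 0.11 (interval -0.24 to 0.47). Dnajc21, a factor of large ribosomal subunit assembly, differed by -0.03 (interval -0.36 to 0.30). Their other probes above background differed by 0.23 and 0.08, with intervals that reached past a 1.5-fold change.

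**Figure D4:**
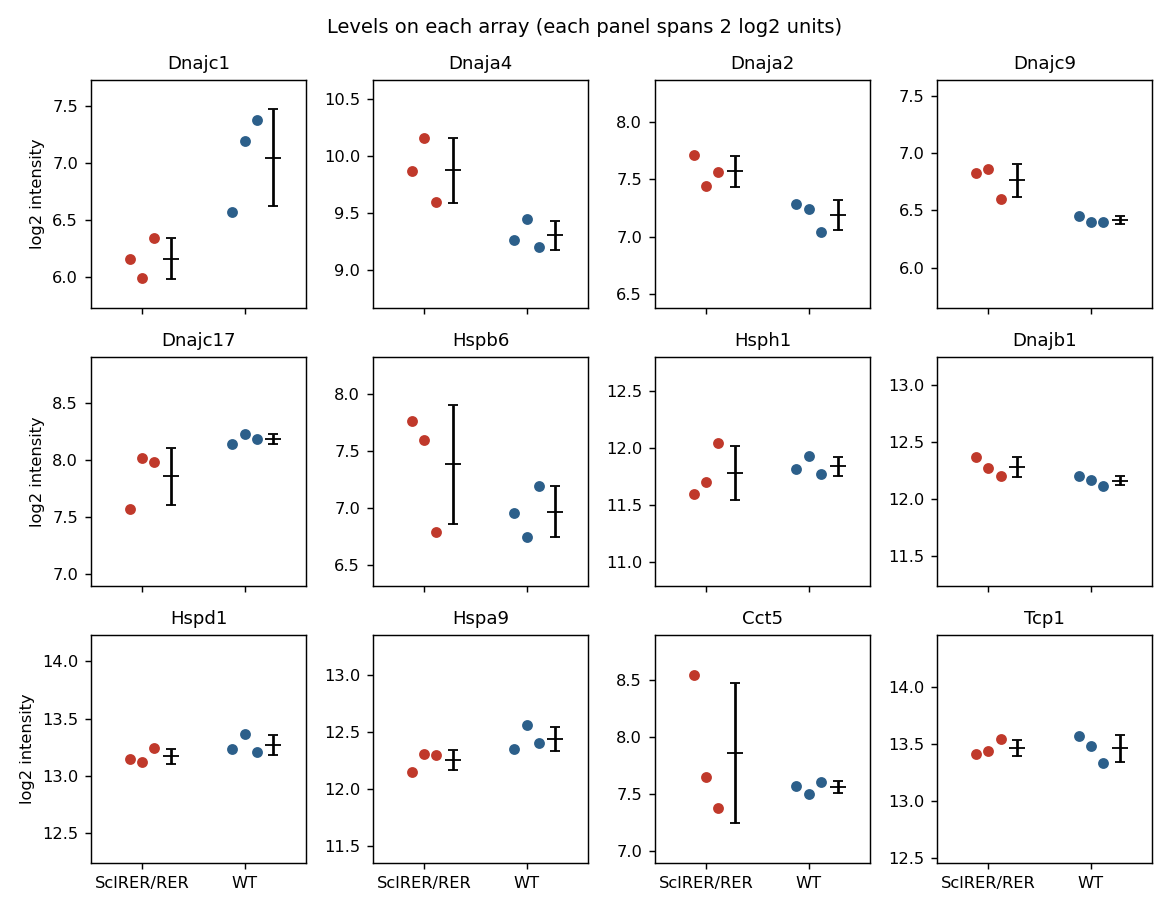
Log2 intensity on each array (points, SclRER/RER left in red, WT right in blue, replicates 1 to 3 from left to right) with mean and SD (bars, n = 3 each) for 12 chaperone genes; every panel spans 2 log2 units. The 3 SclRER/RER points of Dnajc1 lie at 5.99 to 6.34, below the WT points at 6.56 to 7.37, while those of Tcp1 and Hspd1 lie among or near the WT points.

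Probes of the remaining chaperones were seldom detected, which does not show that their mRNA was absent. Of the 34 chaperones not above background on 3 arrays, 32 were detected on 0 of 6 arrays and 2, Cct7 and Dnajc10, on 1. Of the 41 that were tested, 37 were detected on all 6 arrays. The spread between arrays of 1 genotype was like that of other genes, with a median SD of 0.18 in SclRER/RER and 0.11 in WT for the chaperones and of 0.17 in SclRER/RER and 0.12 in WT for all genes tested.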

How the data were processed

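The deposited non-normalized table holds a linear signal intensity per probe and array, per the file headers, without background subtraction or scaling between arrays. Its detection columns hold a deposited detection score, a fraction that rises with the signal and was read as 1 minus the detection p. The column beside WT array 3 followed its signals less closely (Spearman correlation 0.899, at least 0.996 elsewhere) and was replaced, rank by rank of signal, by the mean score of WT arrays 1 and 2. The authors' normalized table, linear intensity with a median of 83.7 on every array, was an alternative. The submitters' processing notes name limma, and no scanner software is given in the sources used here.

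In R 4.3.3 with limma 3.58.1, signals were corrected with nec (offset 16), quantile normalized and put on the log2 scale. A probe was kept if its detection p was below 0.01 on 3 or more of the 6 arrays. Genotype was fitted with lmFit and eBayes, two-sided, with Benjamini-Hochberg adjustment over all 11578 kept probes, and this gives every adjusted p. The procedure was tested on simulated data. A gene is represented by its kept probe of highest mean level. Symbols came from the platform annotation, updated through GRCm38.p6 identifiers. The precision is limited by 3 arrays a group.

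Genes are named if past the threshold, among the 10 largest differences, or on a fixed list of defining members, with fixed cochaperones beside them. All other genes given with values, such as Dnajb6, Dnajb12, Hspa12b, Dnajc7, Actb, Jun and Fkbp4, were chosen after their values were seen. The members and lists were chosen with earlier results of these data known.

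Alternatives were other offsets, backgrounds, scalings, detection filters, floors, probe averaging, variance models, array weights, the replicate number as a block, and leaving out each array. The file headers name no chip, so a chip block was not run.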

Additional observations from a re-analysis of the deposited data

How the results depend on the processing

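The median chaperone difference lay between -0.056 (without SclRER/RER array 3) and 0.013 (without SclRER/RER array 2) under the 19 alternatives. The count of chaperones called was 1 under the settings of the report. It was 0 with 75th percentile scaling, with detection required on at least 1 array or on all 6, with no detection filter and with low values set to the detection floor. It was 2, Dnajc1 and Dnaja4, with no background correction, with the authors' normalized values and with the trended, robust variance, and 3 with array weights, which added Dnajc9. Leaving out single arrays gave 0 to 3 chaperones, with 0 without SclRER/RER array 1 or 2 or WT array 2 or 3, and 3, Dnajc1, Dnaja4 and Hspb6, without SclRER/RER array 3. Over all genes tested, 451 were called, 704 with array weights, and 192 to 604 on leaving out single arrays, with the count at 297 when SclRER/RER array 2 was omitted, at 212 when WT array 3 was, and at 192 when WT array 2 was. The cause of these shifts was not tested. Deviations from the genotype mean correlated at 0.16, -0.03 and 0.07 between arrays with the same replicate number. These values cannot show whether such arrays shared embryos, cultures or processing, which the labels leave unsaid. The replicate block gave 2 chaperones, with Dnaja4 added (limma adjusted p = 0.0468), and 432 genes.

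Of 20 named chaperones, 16 passed under none of the alternatives. Differences near 0 changed sign. Tcp1 was at 0.00095 with the authors' values, 0.060 with 75th percentile scaling and -0.064 to 0.054 on leaving out single arrays. Cct8 was at 0.032 with 75th percentile scaling and -0.066 to 0.059 on leaving out arrays. Hspa4 was at -0.086 with array weights and -0.056 to 0.22 on leaving out arrays, Hsph1 at -0.19 to 0.032, and Cct5 at -0.046 to 0.54.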

Other observations

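Probes of 1 chaperone gene often differed in sign. Of 9 chaperones with more than 1 probe above background, the probes shared a sign in 3 (Dnajc2, Hspd1 and Tcp1) and did not in 6, the widest being Dnajc11 at -0.06 and 0.33 and Dnajc12 at -0.24 and 0.11.

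SclRER/RER array 3 carried the highest SclRER/RER value for 9 of 11 immediate early genes, 12 of 28 cochaperones and regulators and 19 of 41 chaperones (46.3%), against 37.0% of all genes tested. WT array 1 carried the highest WT value for as many, 19 of 41 chaperones (46.3%, against 41.6% of all genes tested) and 12 of 28 cochaperones and regulators, and for 4 of 11 immediate early genes. Fos was at 9.27, 9.39 and 10.63 in SclRER/RER and at 8.92, 9.05 and 8.84 in WT, and Fkbp4, an Hsp90 cochaperone, was at 12.65, 12.76 and 13.19 in SclRER/RER and at 13.14, 13.09 and 13.06 in WT. Neither passed the test (adjusted p = 0.189 and 0.484 from limma). These counts were made after the values were seen.

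Unc45a, a myosin and Hsp90 cochaperone, had the largest difference of the cochaperone list, at 10.51, 10.50 and 10.42 in SclRER/RER against 10.22, 10.19 and 10.11 in WT (0.30, SE 0.11, limma adjusted p = 0.149).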
